A study of Mus musculus with 8 samples.

Results

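Conventional alpha-beta T cells were followed in healing skin wounds of diabetic and control mice. A cell was counted as one when it held a UMI (a unique molecular identifier, 1 per captured RNA molecule) of Trac, the constant part of the T cell receptor alpha chain, and a UMI of Cd3d, Cd3e or Cd3g. Cells with a UMI of Trdc or Tcrg-C1, of Foxp3, or more than 1 UMI of Csf1r were left out, to limit gamma-delta T cells, regulatory T cells and macrophages. Since a cell can express a gene and show no UMI of it, some of these cells can remain. These rules found 653 cells among the 35158 cells with over 200 genes and under 20% mitochondrial UMIs. The members were chosen by the measured UMIs of these genes, so the levels of Trac, the Cd3 genes, Trdc, Tcrg-C1, Foxp3 and Csf1r in them are no result.

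CD45+ leukocytes had been sorted from full-thickness back wounds, 5 mm across, of male C57BL/6J mice. The diabetic group had received STZ (streptozotocin, a toxin of pancreatic beta cells) at 120 mg/kg at 4 weeks of age, and the control group had wounds without it. The wounds of 5 mice were pooled into 1 library per group on days 1, 3, 5 and 7, which gave 8 libraries and no repeat of any group and day. All mice carried the same wound, and what the controls received in place of STZ is not given in the sources used here.

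Conventional T cells see peptides on MHC molecules through the alpha-beta receptor, with CD4 as the coreceptor of helper cells and CD8 as that of cytotoxic cells. Helper cells act through cytokines and through ligands of the tumour necrosis factor family, while cytotoxic cells carry granzymes and chemokines such as CCL5. In mouse skin they share the tissue with gamma-delta T cells, which are known for interleukin 17, with regulatory T cells and with NK cells.

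The libraries held 19236522 to 33842509 UMIs and 3266 to 5436 kept cells, and the members had a median of 3337 to 4720.5 UMIs. Trbc2, Cd2 and Lck, T cell genes outside the rule, were measured at 972 to 1810, 366 to 593 and 441 to 827 CPM (counts per 1000000 UMIs, from the UMIs summed over the cells) in the members of each library. All other kept cells together had 18.1 to 170, 10.8 to 92.4 and 8.47 to 73.0 CPM, so members were richer in T cell RNA in each of the 8 libraries. That comparison cannot separate members from other T cells, and Cd2 was lower in members than in the regulatory T cells compared below. Of the 653 members, 585 (89.6%) had UMIs of at least 3 of 15 further T cell genes, against 12.7% of macrophages and 3.18% of neutrophils gated by their own markers. On diabetic day 7 these shares were 85.6% of members, 39.0% of macrophages and 18.6% of neutrophils, and on control day 7 they were 91.9%, 18.5% and 11.3%. The day 7 libraries stood apart for T cell RNA in other cells: a Trac UMI was found in 47.8% of diabetic and 27.5% of control macrophages on day 7, and in 2.73 to 12.8% of macrophages in the other libraries. Free RNA and doublets as sources of these UMIs were not told apart. Members carried RNA of other cells as well, with 1400 to 7995 CPM over 10 macrophage markers, all 10 detected in 6 libraries, with C1qa at 0 in diabetic day 1 and Adgre1 at 0 in diabetic day 3. A list of 7 mast cell markers summed to 2056 CPM in diabetic day 7 and 56.2 to 324 CPM elsewhere, and 1 member held 63.5% of all Cpa3 UMIs found in members.

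At the edge of the rule, 125 members had a single Trac UMI, 142 a single Cd3 UMI and 218 the 1 Csf1r UMI that was allowed. This Csf1r UMI was most frequent on day 7, in 92 of 194 diabetic and 43 of 86 control members. Just outside it, 611 cells failed on Trac alone and 615 on Cd3 alone. Another 261 failed on the gamma-delta genes alone (80 of them with 1 UMI), 164 on Foxp3 (31 with 1 UMI) and 553 on Csf1r. Of these 553 cells, 237 came from diabetic day 7 and 180 from control day 7.

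The first question was how many of the wound leukocytes were alpha-beta T cells, and when. They were scarce early in diabetic wounds and most frequent there late, while control shares were highest on days 3 and 7. On day 1 they made up 0.778% of diabetic cells (37 of 4757, exact binomial 95% interval 0.548 to 1.07) and 0.884% of control cells (39 of 4412, 0.629 to 1.21). On day 3 the shares were 0.350% (19 of 5436, 0.211 to 0.545) in diabetic and 2.33% (112 of 4805, 1.92 to 2.80) in control wounds. The day 1 intervals overlapped and the day 3 intervals did not, with the control library the higher. On day 5 the order was the other way, at 3.20% in diabetic (134 of 4183, 2.69 to 3.78) and 0.980% in control wounds (32 of 3266, 0.671 to 1.38). On day 7 the diabetic share was 5.32% (194 of 3646, 4.61 to 6.10) and the control share 1.85% (86 of 4653, 1.48 to 2.28). These intervals cover counting error only, since each group and day is 1 pool of mice.

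Over the 4 days the diabetic share was higher by a mean of 0.902 percentage points (SD 2.43, n = 4 day pairs). The diabetic library was higher on 2 of 4 days, and an exact two-sided sign-flip permutation test over the days gave p = 0.5, where 4 pairs cannot go below 0.13 (2 of 16 sign patterns). The mean rested on single days, since it was 0.0454 without day 7, 0.462 without day 5 and 1.86 without day 3. With the cells that held any Cd3 UMI as the denominator the mean difference was -1.44 percentage points (exact sign-flip permutation p = 0.875). Each day kept its direction there, at -2.43, -19.95, 8.53 and 8.10 percentage points on days 1, 3, 5 and 7. After each cell was thinned to 1000 UMIs, the shares ran 0.491%, 0.308%, 2.38% and 5.22% in diabetic and 0.477%, 1.90%, 0.921% and 1.90% in control wounds. The day 3, 5 and 7 differences kept their direction under thinning and that of day 1 turned, while the control shares of days 3 and 7 became equal. A stricter gate with at least 2 Trac and 2 Cd3 UMIs gave 0.631%, 0.239%, 2.06% and 3.401% in diabetic and 0.657%, 1.85%, 0.765% and 1.10% in control wounds. The order of the groups on each day was kept, and the mean difference was 0.489 percentage points (exact sign-flip permutation p = 0.75).

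**Figure D1:**
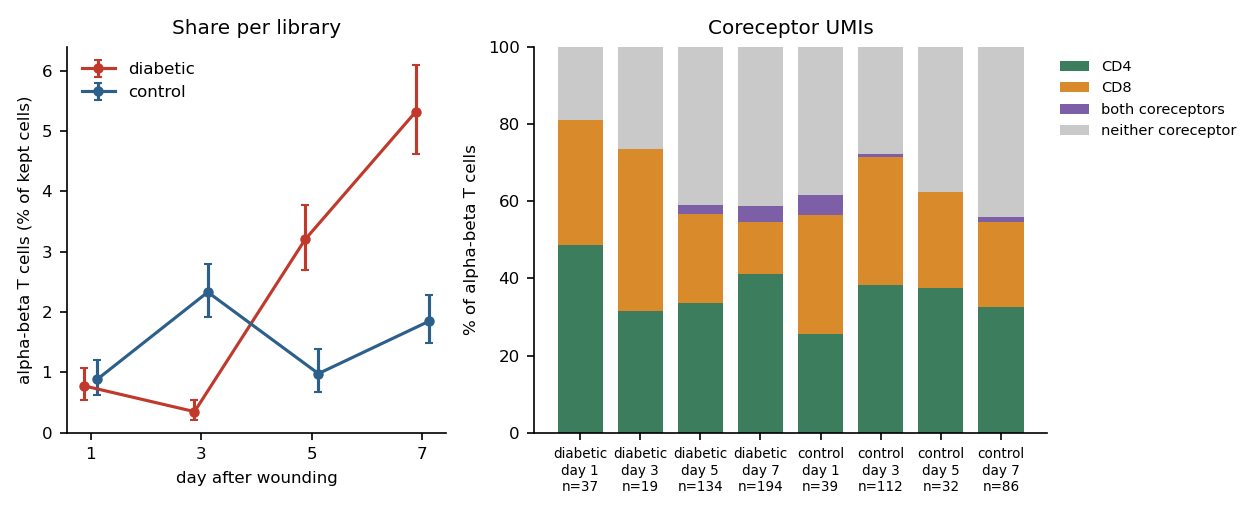
The left panel plots the alpha-beta T cells of each library as a percentage of its kept cells by day after wounding, with exact binomial 95% intervals, and the right panel the percentage of members in each coreceptor class with the number of members under each bar. The diabetic line rises from 0.350% on day 3 to 5.32% on day 7, and the control line is at 2.33% on day 3 and 1.85% on day 7, with overlapping intervals.

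Members were then split by coreceptor UMIs. Cd4 alone was found in 242 members (37.1%), Cd8a or Cd8b1 alone in 153 (23.4%), both in 15 (2.30%) and neither in 243 (37.2%). The median depth was 4175 UMIs in the CD4 class, 4250 in the CD8 class and 3562 in cells with neither. In the class with neither, 59 members (24.3%) had UMIs of fewer than 3 of the 15 further T cell genes, against 4 in the CD4 and 4 in the CD8 class. The class with neither also held 22 of 25 members with a UMI of Blk, 22 of 25 of Zbtb16, 18 of 31 of Tcrg-C2 and 11 of 16 of Tcrg-C4. These genes are known from gamma-delta and innate-like T cells and were not used by the rule. Other genes of the same lists were mixed. The class held 11 of 17 members with Klrb1c and 26 of 48 with Il17a. For Cd163l1 (6 of 16) and Cd1d1 (9 of 23) it was near its 37.2% of all members. Sox13, Trdv4, Trav1 and Slc4a10 were each found in at most 4 members. CD8 cells made up 32.4%, 42.1%, 23.1% and 13.4% of diabetic members on days 1, 3, 5 and 7. In control wounds they made up 30.8%, 33.0%, 25% and 22.1%. With 8 of 32 members on day 5 (exact binomial 95% interval 11.5 to 43.4) and 19 of 86 on day 7 (13.9 to 32.3), the control shares of these days did not differ beyond counting error.

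The CD4 and CD8 classes were compared within 6 libraries that held at least 10 cells of both, which were all but diabetic day 3 and control day 5. CD4 cells had more RNA of most activation and costimulation genes tested and of Il22, while CD8 cells had more of most cytotoxic genes tested, among them granzymes, Ccl5, Klrd1 and Klrk1. Of 3464 genes tested with edgeR at a Benjamini-Hochberg adjusted p under 0.05, 106 (3.06%) passed, 68 (1.96%) of them higher in CD4 and 38 (1.1%) higher in CD8 cells, and the median log2 fold change over all tested genes was -0.01. Of the cytotoxic list, 9 of 10 tested genes were lower in CD4 cells (median log2 fold change -2.66). Of the activation and costimulation list, 7 of 11 were higher in CD4 cells and 0 lower (median 1.32). Of the 8 genes of the type 2 list only Gata3 and Il1rl1 were tested, and both were higher in CD4 cells. Regulatory T cells that show no Foxp3 UMI can remain in the CD4 class. In the comparison with regulatory T cells below, Icos, Il2ra, Tnfrsf4, Tnfrsf18 and Il1rl1 were higher in those cells than in members. Cd40lg, Tnfsf8 and Tnfsf11 were lower in them. The part of such cells in the CD4 values was not tested.

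Il22 encodes interleukin 22, a cytokine that acts on keratinocytes and other epithelial cells. The gene lies on chromosome 10 of GRCm38, at bases 118204942 to 118210047 of the plus strand. In CD4 cells it was measured at 149, 69.6, 134 and 282 CPM on days 1, 3, 5 and 7 of diabetic wounds and at 726, 229, 0 and 562 CPM in control wounds. CD8 cells had 0 Il22 UMIs in each of the 8 libraries. Over the 6 libraries compared, CD4 cells held 278 Il22 UMIs, at least 58.3-fold higher per UMI counted against a floor of 3 counts over the CD8 cells (edgeR adjusted p = 2.2e-09). The UMIs came from few cells: 33 members held any, of which 23 were CD4 cells (9.50% of that class) and 9 had neither coreceptor. None of the CD8 cells held one (0 of 153, which allows up to 1.96% of cells with a UMI and sets no limit on cells that express the gene), and the richest cell held 18.2% of all Il22 UMIs. Iltifb, a near-identical copy of the gene, lies on the same chromosome at 118289629 to 118295038, so reads could be split between them.

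Tnfsf11 encodes RANKL, the ligand that drives osteoclast formation and acts on RANK of dendritic cells and macrophages. It lies on chromosome 14, at 78277445 to 78308043 of the minus strand. CD4 cells had 12.4, 34.8, 306 and 232 CPM on days 1, 3, 5 and 7 of diabetic wounds and 58.1, 133, 138 and 372 CPM in control wounds. CD8 cells had 0, 90.3, 25 and 0 CPM in diabetic and 0, 0, 30.5 and 30.3 CPM in control wounds. The CD4 value was the higher in all 6 libraries compared and the lower in diabetic day 3, whose classes held 6 and 8 cells. The log2 fold change was 4.34 ± 0.48 (SE, edgeR adjusted p = 3.0e-07). In all, 77 of 242 CD4 cells (31.8%) and 6 of 153 CD8 cells (3.92%) held a Tnfsf11 UMI.

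Tnfsf8, which encodes the CD30 ligand, was higher in CD4 cells too (log2 fold change 4.50 ± 0.37, edgeR adjusted p = 4.5e-10). Its CD4 values were 214 to 904 CPM in the 6 libraries and its CD8 values 0 to 121 CPM, with no overlap. Maf, a transcription factor of helper cells, was higher in CD4 cells by 3.44 ± 0.27, and Tnfrsf4, the costimulatory receptor OX40, by 2.93 ± 0.43. Il1rl1, the receptor of interleukin 33, was higher by 4.82 ± 0.52 and Gata3, the master regulator of type 2 helper cells, by 1.71 ± 0.25. With DESeq2 the call of Il1rl1 was lost (adjusted p = 0.19). Icos, a costimulatory receptor of the CD28 family, was higher by 0.92 ± 0.15 and Il2ra, the high-affinity part of the interleukin 2 receptor, by 1.68 ± 0.29. Cd40lg, the helper ligand for B cells and dendritic cells, was higher by 3.15 ± 0.72 (edgeR adjusted p = 0.0095), a call lost without diabetic day 5 (0.12) or diabetic day 7 (0.073).

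Ccl5, a chemokine of memory and effector T cells, lies on chromosome 11 at 83525778 to 83530518 of the minus strand. CD8 cells had 7060, 3040, 8121 and 3948 CPM in diabetic wounds and 7842, 22429, 4118 and 7539 CPM in control wounds. CD4 cells had 797, 696, 595 and 258 CPM in diabetic and 203, 1864, 0 and 753 CPM in control wounds. Each CD8 value exceeded every CD4 value, and CD4 cells were lower by a log2 of -3.71 ± 0.14 (edgeR adjusted p = 7.9e-18). Gzmk, a granzyme of memory CD8 cells, gave -4.54 ± 0.54 and Eomes, a T-box factor of CD8 memory and NK cells, -4.44 ± 0.71. Klrd1 and Klrk1, lectin receptors shared with NK cells, gave -2.75 ± 0.36 and -1.60 ± 0.26, and Nkg7, a protein of cytotoxic granules, -2.02 ± 0.21. Prf1, the pore-forming perforin, was not among the genes past the filter on low counts.

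Gzmb, the main killing protease of cytotoxic granules, was lower in CD4 cells by -2.58 ± 0.43 (edgeR adjusted p = 0.00019) with the opposite order in 1 of the 6 libraries compared. CD8 cells had 4843, 451, 2097 and 559 CPM in diabetic and 1997, 2007, 122 and 516 CPM in control wounds. CD4 cells had 324, 662, 163 and 1077 CPM in diabetic and 0, 210, 155 and 199 CPM in control wounds. In diabetic day 7 the CD4 value was the higher, as it was in diabetic day 3 and control day 5, which were not in the test, and the richest single cell, from that library, held 12.5% of all Gzmb UMIs of members. Ifng, the effector cytokine of type 1 cells, was lower in CD4 cells by -1.23 ± 0.33 (edgeR adjusted p = 0.038), and lower in 4 of 6 libraries. That call was lost with DESeq2 (0.38), in the stricter gate (0.11), and without control day 3 (0.20), diabetic day 5 (0.11) or diabetic day 7 (0.29). The count of 106 genes called in either direction fell to 48 without control day 3, 54 without diabetic day 5 and 62 without diabetic day 7, and DESeq2 called 49.

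**Figure D2:**
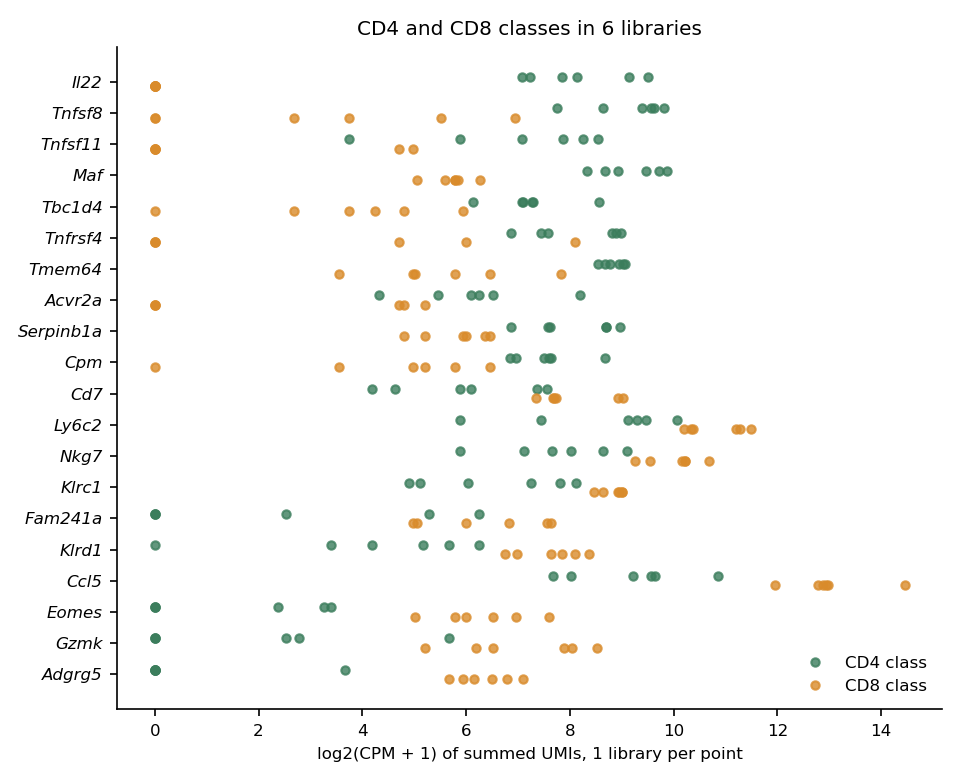
Each point is 1 of 6 libraries, with log2(CPM + 1) of the UMIs summed over its CD4 or CD8 cells on the horizontal axis, for the 10 genes per direction with the largest change that had the same direction in all 6 libraries. Il22 sits at 0 in all CD8 points, and the Ccl5 points of the classes do not overlap.

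Genes were next compared with those of gamma-delta T cells (a Cd3 UMI, a Trdc UMI and no Trac UMI, 403 cells) in the 7 libraries with at least 20 cells of both, all but diabetic day 3. Alpha-beta cells had more RNA of most type 1 and cytotoxic genes tested and more Il22, and gamma-delta cells had more of Il17a, Il17f and tissue residency genes. Of 4782 genes tested, 672 (14.1%) passed, 273 (5.71%) of them higher and 399 (8.34%) lower in alpha-beta cells, with a median log2 fold change of 0.05 over all tested genes. Without diabetic day 5 the counts were 171 higher and 313 lower. Of the type 17 list, 7 of 9 tested genes were lower and only Il22 was higher (median -1.99). Of the cytotoxic list, 7 of 11 were higher and Klrk1 was lower (median 1.89), and 4 of 6 type 1 genes were higher with Tnf lower (median 2.06). Of the tissue residency list, 4 of 7 were lower and 0 higher (median -1.09), and of the 14 genes of T cell receptor signalling 8 were higher and 0 lower (median 1.73).

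Il22 and Il17a are both cytokines of type 17 cells, and they went opposite ways. Il22 in alpha-beta cells was 74.0, 25.2, 49.6 and 141 CPM on days 1, 3, 5 and 7 of diabetic wounds and 162, 118, 0 and 239 CPM in control wounds. Gamma-delta cells had 22.4, 154, 13.1 and 4.98 CPM in diabetic and 26.9, 15.3, 13.9 and 9.03 CPM in control wounds. The alpha-beta value was the higher in 6 of the 7 libraries compared, by a log2 of 2.87 ± 0.42 (edgeR adjusted p = 1.5e-05). The exception was control day 5, and diabetic day 3, which was not in the test, also had the higher value in gamma-delta cells.

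Il17a in gamma-delta cells was 123, 864, 604 and 991 CPM in diabetic and 443, 459, 181 and 961 CPM in control wounds. Alpha-beta cells had 92.5, 25.2, 75.1 and 31.4 CPM in diabetic and 25, 3.70, 29.9 and 193 CPM in control wounds. All other kept cells together had 2.25 to 35.7 CPM of Il17a, and the alpha-beta values of diabetic day 7 and control day 3 were below those of their own library's other cells. Alpha-beta cells were lower in 7 of 7 libraries (-3.42 ± 0.36, edgeR adjusted p = 8.4e-08). Il17f, its close relative, gave -3.61 ± 0.31.

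Ifng was measured at 117, 37.9, 136 and 95.6 CPM in alpha-beta cells of diabetic wounds and at 87.4, 199.7, 97.2 and 115 CPM in those of control wounds. Gamma-delta cells had 0 to 15.3 CPM, so the groups did not overlap (log2 fold change 4.82 ± 0.46, edgeR adjusted p = 1.5e-08). Tbx21, the transcription factor of type 1 cells, was higher by 3.0 ± 0.54, Ccl5 by 4.32 ± 0.49 and Gzmb by 1.89 ± 0.24, each in 7 of 7 libraries. Gzmk had 162 UMIs in alpha-beta and 1 in gamma-delta cells, a ratio per UMI of 76.5 (exact 95% interval 13.5 to 3040, counting error only). Prf1 was not past the threshold (-0.30 ± 0.62, edgeR adjusted p = 0.82). The Eomes call (2.83 ± 0.71) was lost without diabetic day 5 (edgeR adjusted p = 0.089).

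The activation and costimulation list went both ways, with 4 of 11 genes higher and 3 (Cd44, Il2ra and Tnfrsf9) lower (median 0.09). Tnfsf8 was higher in alpha-beta cells by 4.34 ± 0.33, Tnfrsf4 by 4.12 ± 0.39 and Cd40lg by 3.08 ± 0.47, each in 7 of 7 libraries. Il2ra was lower by -1.84 ± 0.18. Tnfsf11 had means of 102 CPM in alpha-beta and 97.1 CPM in gamma-delta cells and was not past the threshold (0.27 ± 0.29, edgeR adjusted p = 0.62). Il1rl1 was higher by 4.62 ± 0.43. Of the tissue residency genes, Rgs1, a regulator of chemokine receptor signalling, was lower by -1.44 ± 0.14, Cxcr6, a chemokine receptor of skin T cells, by -1.09 ± 0.18, and Itgae, the integrin CD103 that binds E-cadherin, by -1.30 ± 0.22. Lck, the kinase that starts receptor signalling, was higher by 3.35 ± 0.22, and Cd5 and Cd6, which adjust that signal, by 4.92 ± 0.36 and 3.86 ± 0.42. Trdv4 and Cd163l1 gave -8.60 ± 0.39 and -6.82 ± 0.31. Trdv4 is itself a gamma-delta receptor gene, and its difference goes with the gate.

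Some cycling and interferon genes were higher in alpha-beta cells as well. Of 11 tested cell cycle genes 5 were higher and 0 lower (median 1.42), among them Mki67, the Ki-67 antigen, by 1.54 ± 0.33. Of 11 interferon-stimulated genes 6 were higher and 0 lower (median 1.28). Of 12 immediate early genes 4 were lower, including Fos and Jun, subunits of AP-1, by -0.84 ± 0.17 and -0.97 ± 0.18 (median -0.28).

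Regulatory T cells (the same rule with a Foxp3 UMI, 164 cells) could be compared in diabetic day 5 and diabetic day 7 alone, where both gates held at least 20 cells. Alpha-beta cells had more Ifng, Il22 and Tcf7, and regulatory T cells more of most checkpoint and regulatory genes tested. Of 6670 genes tested, 498 (7.47%) passed, of which 265 (3.97%) were higher and 233 (3.49%) lower in alpha-beta cells (median over all tested genes 0.01). Of the regulatory list outside the rule 6 of 7 genes were lower (median -2.94), of the checkpoints 4 of 6 were lower (median -1.45) and of the cytotoxic list 8 of 10 were higher and Gzmb lower (median 2.47). Of the type 1 list 4 of 6 genes were higher and 0 lower, of the type 17 list 4 of 8 were higher and 1 lower with Il17a not past the threshold, and of 12 cell cycle genes 5 were lower and 0 higher (median -0.81). DESeq2 called 88 genes and a stricter gate, with at least 2 UMIs of Trac and of Cd3, 151, against 498. With 2 libraries this fit has few residual degrees of freedom. Its edgeR p-values therefore rest mostly on spread estimated over many genes, and say little on the spread of a gene between pools of mice.

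Tnfsf11 was measured at 157 CPM (111 UMIs) in alpha-beta cells of diabetic day 5 and 156 CPM (124 UMIs) in those of diabetic day 7. Regulatory T cells had 0 and 7.04 CPM (0 and 3 UMIs), and 0 to 25.2 CPM in the other libraries. The ratio per UMI was 32.8 (exact 95% interval 11.1 to 160, counting error only) and the edgeR adjusted p was 3.4e-11. Tnfsf8 was higher by a log2 of 5.72 ± 0.41. Il22 had 147 UMIs against 1, a ratio of 61.6 (10.9 to 2450), and Ifng 172 against 2, a ratio of 36.0 (9.83 to 300.0).

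Tcf7, a transcription factor of resting and memory T cells, was higher by 4.00 ± 0.38 with edgeR, while the DESeq2 adjusted p was 0.37. Ikzf2, the factor Helios of regulatory T cells, was lower by -2.94 ± 0.20, Ctla4, an inhibitory receptor, by -2.77 ± 0.16, and Klrg1, a lectin receptor, by -4.03 ± 0.23. Il2ra was lower by -2.29 ± 0.15, Tnfrsf4 by -1.66 ± 0.18, Il1rl1 by -1.92 ± 0.18 and Icos by -0.83 ± 0.10. Gzmb was lower by -0.88 ± 0.14 (edgeR adjusted p = 1.8e-06), and with libraries of at least 10 cells admitted, 4 in number, the value was -0.48 (0.27). Cpa3, a protease of mast cells, was higher by 3.99 ± 0.43. In the stricter gate it was -0.23 (edgeR adjusted p = 0.94), and the member that held 294 of its 463 UMIs came from diabetic day 7.

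NK cells (an Ncr1 UMI with no Cd3 and no Trac UMI, 78 cells) reached 20 cells beside 20 members in only 1 library. A fit with at least 5 cells in 7 libraries, chosen after this was seen, called 250 of 3944 genes (6.34%), with 140 (3.55%) higher and 110 (2.79%) lower in alpha-beta cells (median over all tested genes 0.05). NK cells held more of the cytotoxic list, where 7 of 11 genes were lower in alpha-beta cells and 0 higher (median -1.07), while 6 of 10 activation genes were higher and 0 lower (median 1.49). Of the type 1 list 0 of 6 tested genes passed. Without control day 3, which held the most NK UMIs of Ccl5 and Gzmb, the count of 250 called genes fell to 158, and without diabetic day 5 the 140 higher genes fell to 88.

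Prf1 was lower in alpha-beta cells by -4.06 ± 0.45, Eomes by -3.19 ± 0.33 and Gzma by -2.44 ± 0.33, each in 7 of 7 libraries. Klra8, one of a family of near-identical Ly49 receptors between which reads could be split, gave -5.27 ± 0.39 and Irf8, a transcription factor of NK and myeloid cells, -4.01 ± 0.28. Gzmb did not pass the threshold (0.08 ± 0.20, edgeR adjusted p = 0.93), and Ifng did not either (-1.11 ± 0.39, 0.086). Icos was higher by 3.51 ± 0.24 and Tnfsf8 by 3.64 ± 0.46. Il22 had 324 UMIs in alpha-beta and 0 in NK cells, at least 16-fold higher against a floor of 3 counts over the NK cells. Tnfsf11 was higher by 2.42 ± 0.61 (edgeR adjusted p = 0.0076), a call lost without control day 3 (0.063) or diabetic day 5 (0.13) and with DESeq2 (0.072).

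**Figure D3:**
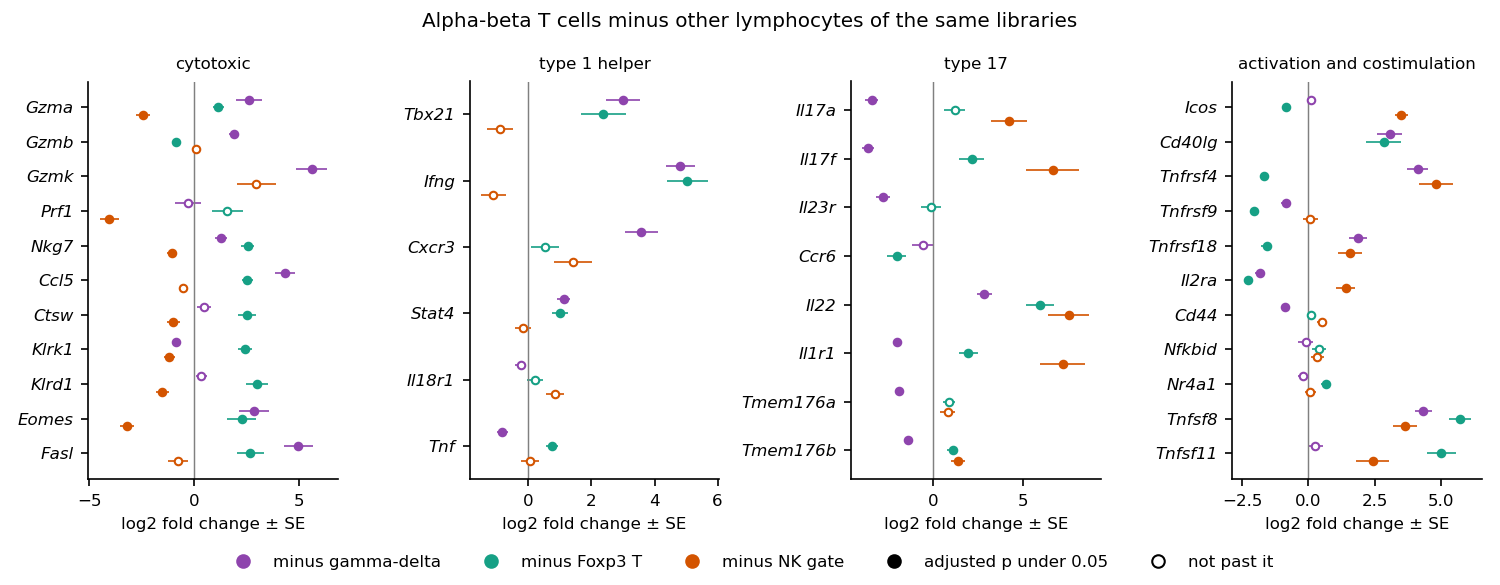
Log2 fold changes with their SE on the horizontal axis, alpha-beta T cells minus gamma-delta T cells, minus Foxp3 T cells and minus the NK gate, are shown for genes of 4 lists, with filled points past an adjusted p of 0.05. Il22 stands to the right of 0 in all 3 comparisons and Il17a to the left for gamma-delta cells only, and points of Il22, Il17f and Il1r1 against the NK gate, where NK cells had 0 UMIs, depend on the count added by the fit.

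Change with time was then asked, with days 5 and 7 against days 1 and 3 and treatment in the model. The late libraries had more Tnfrsf4 and less Gzmb, Plac8 and Ms4a4b in their alpha-beta T cells. Diabetic day 3, with 19 members, was under the minimum of 20 and did not enter. Of 5495 genes tested 8 (0.146%) passed, with 5 (0.091%) higher and 3 (0.0546%) lower late. Of the activation list 1 of 11 tested genes (Tnfrsf4) was higher (median 0.58), of the cytotoxic list 1 of 10 (Gzmb) was lower (median -0.90), and the median over all genes was -0.00. The coreceptor mix moved too: CD8 cells were 30.8 to 42.1% of members early and 13.4 to 25% late. CD4 cells did not rise in their place, at 25.6 to 48.6% early and 32.6 to 41.2% late. Members with neither coreceptor were 18.9 to 38.5% early and 37.5 to 44.2% late. Cd8b1 changed by -1.54 (edgeR adjusted p = 0.078). Gzmb, Plac8 and Ms4a4b UMIs were in 62.1%, 57.5% and 71.2% of CD8 and 22.7%, 30.2% and 49.6% of CD4 cells. Tnfrsf4 UMIs were in 8.50% of CD8 and 51.7% of CD4 cells. The part of this mix in the changes was not tested.

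Tnfrsf4, on chromosome 4 at 156013843 to 156016612, was measured at 86.3, 63.1, 225 and 297 CPM on days 1, 3, 5 and 7 of diabetic wounds and at 74.9, 83.2, 194 and 285 CPM in control wounds. All late values lay above all early values in both groups, and the log2 fold change was 1.58 ± 0.27 (edgeR adjusted p = 0.047). Gzmb was 2158, 454, 833 and 719 CPM in diabetic and 992, 895, 187 and 435 CPM in control wounds. Its 3 early libraries in the test lay above the 4 late ones (-1.53 ± 0.24, edgeR adjusted p = 0.038), while diabetic day 3 lay among the late values. Plac8 (937, 114, 222 and 167 CPM in diabetic, 456, 486, 209 and 196 CPM in control wounds) fell by 1.70 ± 0.24 on the log2 scale. Ms4a4b, a membrane protein of T cells, had 1042, 202, 387 and 250 CPM in diabetic and 580, 930.3, 321 and 288 CPM in control wounds and fell by 1.51 ± 0.23. Diabetic day 3 was below all early libraries tested for these 3 genes. For Plac8 and Ms4a4b it was the lowest of all libraries, below the late ones too.

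Cd63, a protein of lysosomes, rose by 1.91 ± 0.32, from 43.7 to 115 CPM in the early to 211 to 357 CPM in the late libraries tested, and stood at 290.2 CPM in diabetic day 3, among the late values. Rnase4, Cd36 and Apoe passed too, the last of which encodes the lipid carrier apolipoprotein E of macrophages and other cells. Apoe was at 80.2, 106 and 459 CPM in the early libraries tested and at 333 to 2556 CPM in the late ones, which overlap. These 4 genes were all lower in members than in the other cells of the libraries (median difference in log2(CPM + 1) -2.02 to -2.67). Tnfrsf4, Gzmb and Ms4a4b were higher in members, and Plac8 differed by -0.10. Macrophage markers in members also stood at 4769 to 7995 CPM in 3 of 4 late libraries, at 1690 CPM in diabetic day 5 and at 1400 to 3192 CPM in the early ones, and their part in the change of these genes was not tested. When members were limited to those with 3 further T cell genes, 29 genes passed, and 16 of the 19 higher ones were lower in members than in other cells.

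The count rested on few libraries. It was 0 without diabetic day 1, 0 without control day 5, 0 with diabetic day 3 admitted, 4 without control day 7 and 40 without diabetic day 5. Without both day 7 libraries, which leaves 2 of the 4 late libraries, 2 genes passed (Fabp5 and Ccl22), and Tnfrsf4 kept a log2 fold change of 1.32 that did not pass (edgeR adjusted p = 0.49). Il1rl1 was at 0, 151, 173 and 316 CPM in diabetic and 6.24, 70.3, 187 and 311 CPM in control wounds. It did not pass the threshold over all members and did among members with 3 further T cell genes. Tnfsf11 was at 30.8, 50.5, 157 and 156 CPM in diabetic and 18.7, 74.0, 74.7 and 203 CPM in control wounds, with a log2 fold change of 1.67 that did not pass. Gzma, another granzyme, was at 1017, 227, 496 and 86.8 CPM in diabetic and 218, 3015, 105 and 226 CPM in control wounds. Il7r, the interleukin 7 receptor of long-lived T cells, was at 771, 429, 865 and 1215 CPM in diabetic and 587, 263, 837 and 1374 CPM in control wounds.

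**Figure D4:**
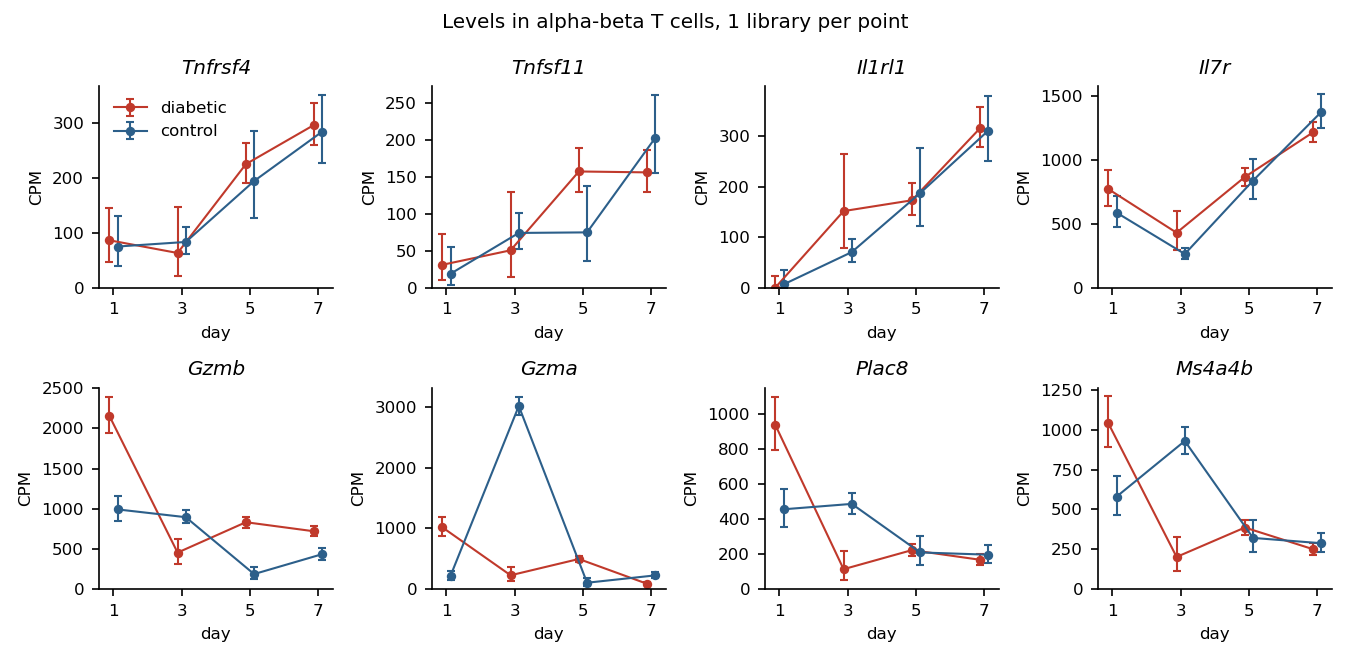
CPM of 8 genes in the alpha-beta T cells of each library is plotted by day after wounding, with exact Poisson 95% intervals that cover counting error only. Tnfrsf4 is between 63.1 and 86.3 CPM in the 4 early and between 194 and 297 CPM in the 4 late libraries, while Gzma peaks at 3015 CPM in control day 3.

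**Figure D5:**
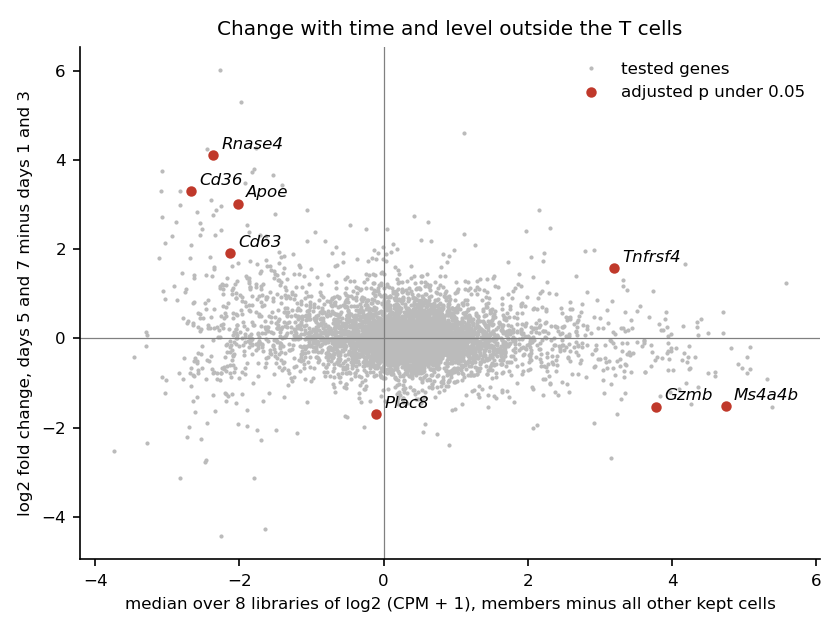
Each point is a tested gene, with the median over 8 libraries of its log2(CPM + 1) in members minus that in all other kept cells on the horizontal axis and its log2 fold change late minus early on the vertical axis. Of the 5 genes higher late, 4 lie left of 0, and Tnfrsf4 lies right of it.

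Diabetic and control wounds were compared across days, with day as a block, over the same 7 libraries. Day 3 had no diabetic library in that fit and gave no information on treatment, so the test rests on days 1, 5 and 7. Of 6436 genes, edgeR called 0 (0%), with 246 at an unadjusted p under 0.05, and DESeq2 also called 0. None of the 157 tested genes of the 19 lists passed, and their median log2 fold change was 0.07 against 0.00 over all genes. Gzmb, whose values are given above, was the higher in the diabetic library on days 1, 5 and 7 and the lower on day 3, with a log2 fold change of 1.24 ± 0.25 (edgeR adjusted p = 0.54). Its order on day 7 rested on 1 cell of the diabetic library, which held 294 of the 2347 Gzmb UMIs of all members. The lowest p belonged to Ctsk, a collagen-degrading protease of osteoclasts and macrophages (-3.55 ± 0.51, edgeR adjusted p = 0.15). Tnfsf11 (0.23 ± 0.38), Il22 (-0.40 ± 0.51) and Ifng (0.14 ± 0.32) did not pass. The count was 28 without day 1, 3 without day 7 (C1qb, Pf4 and Gzma) and 23 with no filter on low counts. Ctsk, C1qb and Pf4 were higher in members than in other kept cells in 0 libraries, and Gzma in 7. The median differences in log2(CPM + 1) of the first 3 were -2.82, -1.86 and -2.47. The part of RNA from other cells in their values was not tested.

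Single members were last described by which of these transcripts they held together. Cells shared library and depth, and a deeper cell shows more of every gene, so these counts are a description. Il22, Tnfsf8, Tnfsf11, Ccl5 and the granzymes also differed between the CD4 and CD8 classes. The numbers for independent genes do not take that split into account. Of the 33 members with an Il22 UMI, 26 also held Tnfsf8, where 8.29 would be found if the genes were spread independently over the 653 cells, and 9 held Il17a against 2.43. Only 1 held Ifng against 6.42, and 0 held Gzmk against 3.39. Tnfsf11 and Tnfsf8 were found together in 62 cells against 30.9. On the other side, Gzmk and Ccl5 were together in 65 of the 67 Gzmk cells against 35.9, Gzma and Gzmb in 88 cells against 47.8, and Ifng and Gzmb in 71 cells against 42.8.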

How the data were processed

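Single CD45+ cells of 8 wound libraries, 1 for each of 2 groups and 4 days, were measured by 3' RNA sequencing (the study's methods name BD Rhapsody, the record 10X). The authors trimmed reads with fastp (0.20.1 in the submitters' processing notes), found cell barcodes by UMI-tools and aligned by STAR against Ensembl release 92, while the notes name mm9. The deposited counts are raw UMI counts per gene and cell, with no normalization and before the study's cell filter. Positions are from the GENCODE annotation of GRCm38.

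Cells with over 200 non-mitochondrial genes and under 20% mitochondrial UMIs were kept. No doublet caller was run, and 15 members held both coreceptors. Cells carry serial names, so barcodes shared between libraries were not counted, and 0 members had the counts of another. UMIs of mitochondrial genes were left out, and the UMIs of a gate were summed per library. R 4.3.3 and edgeR 4.0.16 (quasi-likelihood F test) were used on these sums, with TMM, filterByExpr and Benjamini-Hochberg adjustment at 0.05, on libraries with at least 20 cells of a gate (10 for coreceptor classes, 5 for NK). Library was the block between gates, day the block between treatments and treatment a covariate between periods. Within-library fits pair the gates by library, and treatments are paired by the day of wounding in the labels, with no shared animals. The p-values thus measure the spread between these pools. Those against regulatory T cells, with 2 libraries, rest mostly on spread estimated over many genes. Genes of the gates, and the coreceptor genes between CD4 and CD8 cells, were left out of the results after the adjustment. The adjustment itself ran over all genes past the filter, and counts of genes tested are those left. Fold changes are log2 with the SE from the F statistic. Alternatives were DESeq2 1.42.0, other scaling (RLE), no filter on low counts, over 500 genes per cell, a stricter gate, and each library or day left out. Limits of at least 10 cells, of 3 T cell genes outside the rule and of days 1, 3 and 5 alone were added after the data were seen. The tests were run on simulated counts with 200 changed genes. Shares have exact binomial and levels exact Poisson 95% intervals. Cells were gated in Python 3.11.15 (pandas 2.3.3, scipy 1.17.1, numpy 2.4.6) and plots drawn by matplotlib 3.10.9.

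The members and the gene lists were chosen with earlier results of these data known. The genes named are those of the lists and, per comparison, up to 10 in each direction with the largest change among those past the threshold and alike in all libraries. Cd36, Apoe, Fabp5, Ccl22, Ctsk, C1qb and Pf4 were named after their values were seen. Some genes of the lists are not reported here.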

Additional observations from a re-analysis of the deposited data

Results flagged for a closer look

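The difference in the share of alpha-beta T cells between the groups changed direction with time. As a mean of days 1 and 3 the diabetic share was lower than the control share by -1.04 percentage points, and as a mean of days 5 and 7 it was higher by 2.85, which is a shift of 3.89 percentage points. It was higher on both late days. The early value rested on day 3, since the day 1 difference was -0.106 with overlapping intervals and turned to 0.0146 when cells were thinned to 1000 UMIs. The difference between the periods was not tested, and with 1 pool of mice per group and day the group and the library cannot be told apart.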

How the results depend on the processing

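The mean difference in share was -1.44 percentage points with Cd3 cells as the denominator, 0.489 in the stricter gate, 0.0454 (without day 7) to 1.86 (without day 3) with a day left out, and 0.771 to 1.01 under 4 other settings. Between diabetic and control wounds the 0 calls became 23 with no filter, 1 (Gzma) in the stricter gate and 0 to 28 with a day left out (28 without day 1, 3 without day 7). Without the replicate block of day, which pairs the libraries, edgeR called 0 genes as well. For late against early, the 8 calls became 116 with no filter, 34 with DESeq2, 17 in the stricter gate, 29 with 3 T cell genes required, 0 with at least 10 cells, 33 with day as a number, 2 without day 7 and 0 to 40 with a library left out. Against regulatory T cells the 498 calls became 88 with DESeq2 and 151 in the stricter gate, where Cpa3 turned to -0.23. Against NK cells the 250 calls were 158 to 271 with a library left out, and between CD4 and CD8 cells the 106 calls were 48 to 105, and 49 with DESeq2. Against gamma-delta cells the total stayed within 1.5 times of 672 under each setting, while the genes higher fell from 273 to 171 without diabetic day 5. Of single named genes, 1206 of 1237 refits against gamma-delta cells kept direction and call, 720 of 781 against NK, 451 of 556 against regulatory T, 391 of 446 between CD4 and CD8 and 54 of 94 for late against early, and none but Cpa3 turned.

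A gate with 0 Csf1r and C1q UMIs and at most 3 S100a8 and S100a9 UMIs left 1 to 22 members per library and could not be fitted, and a fit against regulatory T cells with 1 of its 2 libraries left out has no residual degrees of freedom. With 19 to 194 members per library, a low gene rests on few molecules.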
